A study of Mus musculus with 6 samples.

Results

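Cone opsin and cone phototransduction transcripts were followed in RNA prepared from the retinal pigment epithelium (RPE), the pigmented layer behind the photoreceptors. The genes were those of a named list of 10 that had an entry in the deposited table: Opn1sw, Opn1mw, Arr3, Gnat2, Gngt2, Gnb3, Pde6c, Pde6h and Cngb3 did, 9 of 14008 named entries, and Cnga3 was not analysed here. The 6 libraries were made from C57BL/6J mice (an inbred strain), all males 8 to 10 weeks old, at circadian time 23 (CT23, 3 libraries) and circadian time 1 (CT1, 3 libraries), which lie on either side of subjective dawn. Each library pooled 2 RPE samples, and the labels give no treatment, transgene or mutation. By the labels' protocols the neural retina had been peeled off and RPE cells were released from the posterior eye by brief sonication. The comparison addressed how transcripts in this preparation differ between CT23 and CT1.

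Cones are the photoreceptors of daylight and colour vision. In them an opsin, the light-absorbing pigment protein, activates the G protein transducin, which relieves the inhibition of a phosphodiesterase. The phosphodiesterase breaks down cyclic GMP, and the cation channel that cyclic GMP holds open closes. Arrestin then silences the opsin. Rods use a parallel set of proteins, most of them encoded by separate genes. Mouse cones hold a medium-wavelength opsin, a short-wavelength opsin or both.

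Levels are in CPM, a gene's reads scaled to a fixed total in every library, and the values of a time are given in the order of its replicates 1, 2 and 3. Libraries held 12612330 to 13651486 reads, of which the 9 cone genes took 203 to 393. The upper limit for a gene with no read, 3 reads, is 0.220 to 0.238 CPM and covers counting error only. Nothing in the labels says whether the pools of 1 time came from separate litters or days, so p-values measure the spread between these libraries. RPE markers were present, 12 of 12, and summed to 2413 to 2946 CPM at CT23 against 3237 to 3908 CPM at CT1. Dct alone made up most of these sums, at means of 1559 and 2059 CPM. By gene, 3 of the 12 lay higher at CT1 with no overlap, against 11.3% of all genes tested, and the rest overlapped between the times. Lens genes stood apart, at 19.9% and 18.1% of the library totals in CT23 replicates 1 and 2 and between 0.239% and 2.36% in the other 4 libraries. Reads in listed entries were only part of these totals. Of them, lens genes took 2716294 of 4407650 in CT23 replicate 1 and 2352983 of 3985647 in replicate 2. The most in the other libraries was 321943 of 1944675, in CT23 replicate 3. The cone label was checked on other genes known from cones. The most abundant of these, Thrb, the thyroid hormone receptor that sets the medium-wavelength opsin fate, measured 7.55 to 13.4 CPM. It lay above all 9 cone genes and is also expressed outside cones, so it is a weak check. The others averaged 0.431 CPM (Sall3) to 3.83 CPM (Fam19a3) over the 6 libraries, and their directions, given below, were mixed.

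The cone genes together were lower at CT1, apart from the short-wavelength opsin. Their summed level was 28.8, 24.1 and 25.4 CPM at CT23 against 17.4, 17.6 and 15.0 CPM at CT1. The sums of the times did not overlap, and the CT1 mean was 0.639 times the CT23 mean. By gene, 8 of the 9 had a lower mean at CT1 and Opn1sw had a higher one; of the 8 genes tested below, 7 had a lower fold (52.2% of all genes tested) and 1 a higher one (47.8%). In 6 of the 9, all CT23 libraries lay above all CT1 libraries, as in 15.4% of all 14008 entries. With TMM factors it was 7 of 9, against 14.8% of entries, and with lens reads out of the totals 7 of 9, against 23.3%, with Gngt2 added in both. In bulk RNA, fewer cones or cone fragments in a sample and less RNA per cone cannot be told apart.

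No cone gene passed the test. With limma on log2(CPM + 1), adjusted by the Benjamini-Hochberg method over the 11342 genes whose mean reached 1 CPM, 0 of 8 cone genes tested passed an adjusted p of 0.05, where 0.0% of all genes did. At an unadjusted limma p under 0.05, 5 of the 8 were lower at CT1 (12.4% of all genes) and 0 were higher (9.39% of all genes). Among the 8 tested, 5 lay lower at CT1 with no overlap between the times, against 16.3% of all genes, and none lay higher, against 11.3%. The median log2 fold, CT1 minus CT23, was -0.43 over the 8 cone genes and -0.014 over all genes tested. These folds are on the log2(CPM + 1) scale and understate changes of genes as low as these. Leaving out CT23 replicates 1 and 2, the lens-rich libraries, left 1 library at CT23, which the fit assumes to vary like the others. There 3 of 8 were lower at an unadjusted p under 0.05, against 4.14% of all genes, and the median fold of the 8 was -0.31.

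**Figure D1:**
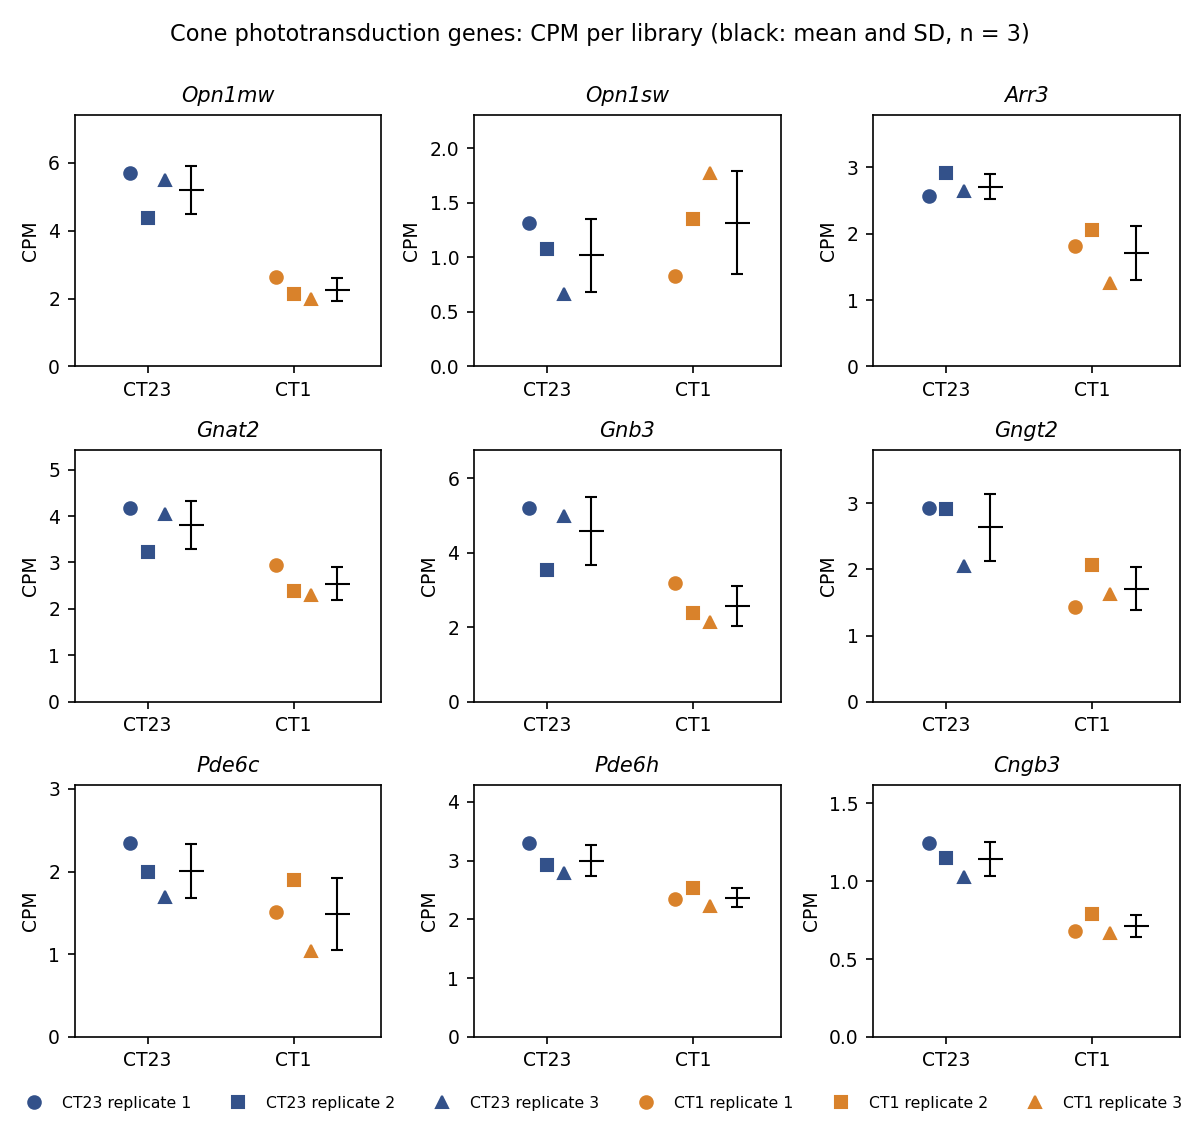
CPM of each of the 9 cone genes in each library, with CT23 on the left and CT1 on the right of each panel; symbols mark the replicate and black bars the mean and SD of 3 libraries. Opn1mw, Arr3, Gnat2, Gnb3, Pde6h and Cngb3 show no overlap between the times, while Opn1sw, Gngt2 and Pde6c overlap.

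The medium-wavelength opsin had the largest fold of the cone genes. Opn1mw (ENSMUSG00000031394.11, chromosome X, 74127464 to 74150760, plus strand, mm10) measured 5.71, 4.38 and 5.50 CPM at CT23 against 2.64, 2.14 and 2.00 CPM at CT1. Every CT23 library lay above every CT1 library, with a gap wider than the spread within either time. Its means were 5.20 ± 0.717 and 2.26 ± 0.339 CPM (SD, n = 3 each), a CT23 mean 2.30 times the CT1 mean. The limma log2 fold was -0.92 (SE 0.138, adjusted p = 0.0736), rank 12 of 11342 genes by p. It was the 1 cone gene with an adjusted limma p under 0.1, which 3.06% of all genes were under in the same direction and 1.32% in the other. In the authors' deposited table the log2 fold of Opn1mw was -1.20 with a p-value of 0.0156. On the whole reads recovered from CPM, edgeR's exact test gave Opn1mw an adjusted p of 0.000158, while edgeR's quasi-likelihood test gave 0.0779 and limma-voom 0.0850. That exact test called 2 of the 8 cone genes, Opn1mw and Gnb3, both lower at CT1, where it called 3.92% of all genes lower and 3.24% higher.

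The short-wavelength opsin did not share that pattern. Opn1sw (ENSMUSG00000058831.13, chromosome 6, 29376671 to 29388468, minus strand) measured 1.32, 1.08 and 0.660 CPM at CT23 against 0.831, 1.35 and 1.78 CPM at CT1. The times overlapped, and the highest value was in CT1 replicate 3 and the lowest in CT23 replicate 3. These values rest on 9 to 24 reads per library. The means were 1.02 ± 0.333 and 1.32 ± 0.474 CPM (SD, n = 3 each), with a limma log2 fold of 0.19 (95% interval -0.25 to 0.64, adjusted p = 0.585). In the authors' deposited table its log2 fold was 0.37 with a p-value of 0.583. The 3′ end of Opn1sw is also covered by another gene: 397 of its last 500 exonic bases overlap exons of Calu, a calcium-binding protein gene on the other strand. Calu measured 21.1, 29.3 and 23.2 CPM at CT23 against 28.6, 34.9 and 32.6 CPM at CT1. The strand setting of the counting is not known from the labels or headers, so reads of Opn1sw and Calu cannot be told apart with certainty, and the part of Calu in the Opn1sw values was not tested.

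The balance between the opsins was taken within each library, where the library total cancels. Opn1sw made up 18.8% of the cone opsin reads in CT23 replicate 1 (18 of 96 reads, 95% Wilson interval 12.2% to 27.7%), 19.7% in replicate 2 (14 of 71, 12.1% to 30.4%) and 10.7% in replicate 3 (9 of 84, 5.74% to 19.1%). At CT1 the share was 23.9% in replicate 1 (11 of 46, 13.9% to 37.9%), 38.6% in replicate 2 (17 of 44, 25.7% to 53.4%) and 47.1% in replicate 3 (24 of 51, 34.1% to 60.5%). All CT1 shares lay above all CT23 shares, and the intervals cover counting error only, since reads without molecular identifiers are not independent molecules. The means were 16.4% ± 4.94 at CT23 and 36.5% ± 11.7 at CT1 (SD, n = 3 each), a difference of 20.1 percentage points (exact permutation test, two-sided, p = 0.1, the smallest that 3 against 3 libraries can give). Without CT23 replicates 1 and 2 the difference was 25.8 percentage points. That left only replicate 3 at CT23, the library with the lowest share (10.7%). Both opsins together measured 5.45 to 7.03 CPM at CT23 and 3.47 to 3.78 CPM at CT1. The overlap of Opn1sw with Calu described above touches these shares as well.

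**Figure D2:**
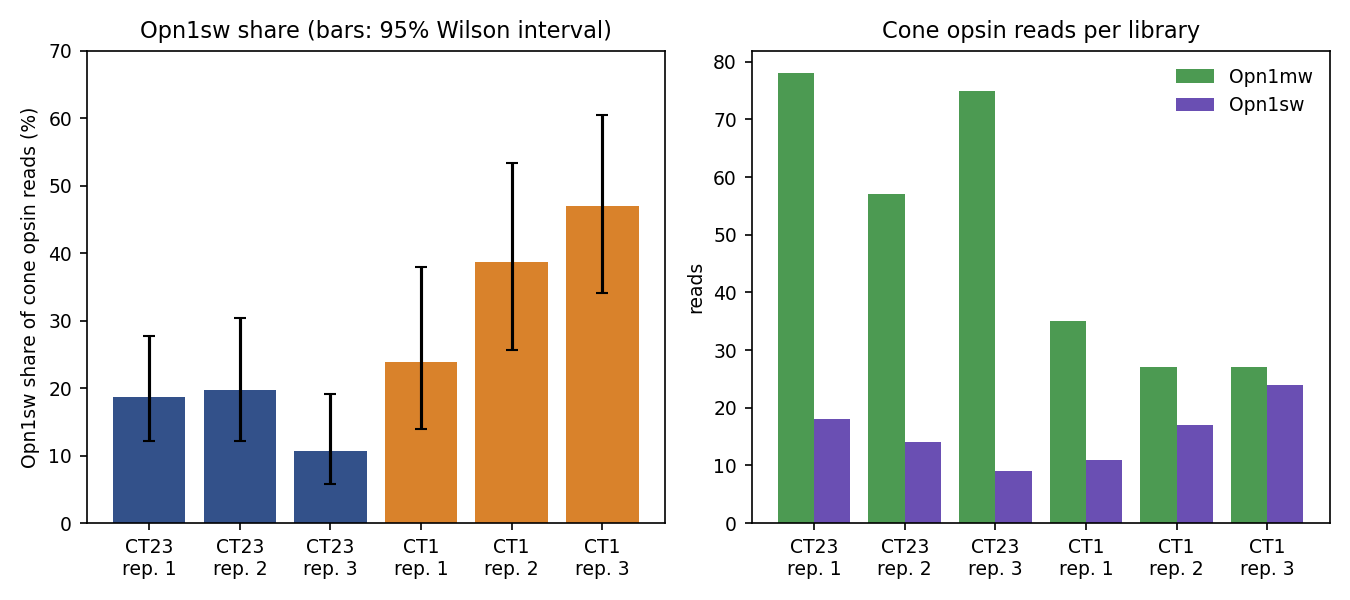
Left, the share of Opn1sw among cone opsin reads in percent for each library, with 95% Wilson intervals; right, the reads of Opn1mw and Opn1sw in each library. The share lies between 10.7% and 19.7% at CT23 and between 23.9% and 47.1% at CT1, and Opn1mw has 57 to 78 reads at CT23 and 27 to 35 at CT1.

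Promoters of the opsin genes are shown because their folds had opposite signs, and that of Arr3, the cone arrestin, because it held the most matches to the motif searched. RefSeq sequences from 250 bases before to 50 after the RefSeq start, 5′ to 3′ on the gene's strand, were matched for 5 of the 9 cone genes by symbol: Opn1sw, Opn1mw, Arr3, Gnat2 and Pde6h. For Opn1sw and Pde6h that start is the start of GENCODE's principal transcript, which lies 7955 and 30691 bases inside the gene bounds printed here, since those bounds run to the outermost annotated transcript. The Arr3 start equals the gene's start, and those of Opn1mw and Gnat2 lie 2 and 277 bases inside it. Capitals mark TAATCC or TAATCT on either strand, the letters that the photoreceptor factor CRX is known to prefer.
Opn1mw promoter, GRCm38.p6 chrX:74127216-74127515, plus strand: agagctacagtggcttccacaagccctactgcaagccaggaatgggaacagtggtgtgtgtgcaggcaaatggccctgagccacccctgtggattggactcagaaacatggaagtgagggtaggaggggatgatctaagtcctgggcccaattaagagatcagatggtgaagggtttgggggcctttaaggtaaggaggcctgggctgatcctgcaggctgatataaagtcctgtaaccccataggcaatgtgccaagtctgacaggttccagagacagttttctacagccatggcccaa
Opn1sw promoter, GRCm38.p6 chr6:29380464-29380763, minus strand: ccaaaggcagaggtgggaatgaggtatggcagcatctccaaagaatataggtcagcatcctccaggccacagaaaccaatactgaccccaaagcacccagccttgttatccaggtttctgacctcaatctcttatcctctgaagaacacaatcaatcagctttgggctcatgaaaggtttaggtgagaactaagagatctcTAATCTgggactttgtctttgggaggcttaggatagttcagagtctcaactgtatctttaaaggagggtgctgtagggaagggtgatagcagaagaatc
Arr3 promoter, GRCm38.p6 chrX:100605247-100605546, plus strand: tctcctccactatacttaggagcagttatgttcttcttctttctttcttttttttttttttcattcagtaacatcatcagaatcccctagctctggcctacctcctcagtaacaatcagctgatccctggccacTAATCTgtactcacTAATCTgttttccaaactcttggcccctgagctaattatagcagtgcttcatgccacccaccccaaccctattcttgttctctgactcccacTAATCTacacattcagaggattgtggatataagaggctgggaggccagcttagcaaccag
The search found 3 matches in Arr3, 1 in Opn1sw, 1 in Gnat2 and 0 in Opn1mw and Pde6h, where 14.4% of the 32851 promoters of this length held at least 1. AGGTCA, a motif of nuclear receptors, was searched on both strands and found 2 times in the Opn1sw promoter and not in the other 4, against 16.3% of all promoters. CACGTG, the E-box of the clock activators, was found in none of the 5, against 7.15% of all promoters. No match overlapped another. A match is a description of the letters in this window, and a missing match says nothing about binding.

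Cone arrestin, which ends the activity of light-activated cone opsin, was lower at CT1. Arr3 (chromosome X, 100605497 to 100618493, plus strand) measured 2.56, 2.92 and 2.64 CPM at CT23 against 1.81, 2.06 and 1.26 CPM at CT1. The times did not overlap, and CT1 replicate 3 was the lowest. Its limma log2 fold was -0.46 (SE 0.146, adjusted p = 0.135) and did not pass.

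The 3 subunits of cone transducin had lower means at CT1. Gnat2, the alpha subunit that carries the signal (chromosome 3, 108092789 to 108101432, plus strand), measured 4.18, 3.23 and 4.03 CPM at CT23 against 2.95, 2.38 and 2.30 CPM at CT1. The lowest CT23 library stood just above the highest CT1 library. Gnb3, the beta subunit (chromosome 6, 124834240 to 124840275, minus strand), measured 5.20, 3.53 and 4.99 CPM at CT23 against 3.17, 2.38 and 2.15 CPM at CT1. There was again no overlap, with CT23 replicate 2 closest to the CT1 libraries. Gngt2, the gamma subunit (chromosome 11, 95837216 to 95845734, plus strand), measured 2.93, 2.92 and 2.05 CPM at CT23 against 1.44, 2.06 and 1.63 CPM at CT1. Its times overlapped, since CT1 replicate 2 reached the level of CT23 replicate 3. The limma log2 folds were -0.44 for Gnat2, -0.64 for Gnb3 and -0.42 for Gngt2, with adjusted p of 0.131, 0.104 and 0.176, so none passed. Gnb3 passed edgeR's exact test (adjusted p = 0.0306). Gnb3 is also used by ON bipolar cells, interneurons of the inner retina. Bipolar cell markers summed to 159 to 193 CPM at CT23 and 135 to 180 CPM at CT1, overlapping between the times. Most of that sum was Trpm1, at means of 96.6 and 88.4 CPM, and Otx2, at 58.2 and 53.0 CPM. Otx2 is also on the list of photoreceptor transcription factors, so the sum is a poor measure of bipolar RNA. The part of bipolar cells in the Gnb3 values was not tested.

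The cone phosphodiesterase genes had the smallest folds among the lower ones. Pde6c, the catalytic subunit (chromosome 19, 38132781 to 38183958, plus strand), measured 2.34, 2.00 and 1.69 CPM at CT23 against 1.51, 1.90 and 1.04 CPM at CT1. The times overlapped, with CT1 replicate 2 above CT23 replicate 3. Pde6h, the inhibitory subunit (chromosome 6, 136923832 to 136968865, plus strand), measured 3.30, 2.92 and 2.79 CPM at CT23 against 2.34, 2.54 and 2.22 CPM at CT1. Its times did not overlap, and the libraries within each time lay close together. The limma log2 folds were -0.29 for Pde6c and -0.25 for Pde6h (95% intervals -0.66 to 0.092 and -0.52 to 0.022; adjusted p = 0.345 and 0.261).

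The modulatory subunit of the cone channel had the lowest mean over the 6 libraries. Cngb3 (chromosome 4, 19280850 to 19510623, plus strand) measured 1.25, 1.15 and 1.03 CPM at CT23 against 0.680, 0.793 and 0.666 CPM at CT1. These are 14 to 17 reads per library at CT23 and 9 to 10 reads at CT1, with no overlap. Its mean of 0.927 CPM lay below the filter, so it was not among the genes tested. With no filter, over 14008 genes, limma gave a log2 fold of -0.32 (SE 0.107, adjusted p = 0.159).

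The cone genes had levels from 0.927 CPM (Cngb3) to 3.73 CPM (Opn1mw) averaged over the 6 libraries, between the 17.3 and 57.7 percentiles of all entries. In libraries of this 3′ end kind a transcript gives reads at its end whatever its length, so no length was divided out, and how well each 3′ end was captured was not tested. The order at CT23, from the highest mean, was Opn1mw, Gnb3, Gnat2, Pde6h, Arr3, Gngt2, Pde6c, Cngb3 and Opn1sw. Opn1mw and Gnb3, Gnb3 and Gnat2, Arr3 and Gngt2, and Cngb3 and Opn1sw differed there by less than the larger SD of each pair. At CT1 the order was Gnb3, Gnat2, Pde6h, Opn1mw, Arr3, Gngt2, Pde6c, Opn1sw and Cngb3, and the first 4 of these, at 2.26 to 2.57 CPM, differed by less than the largest of their SDs. The SD between libraries was 0.298 to 1.55 times the SD that counting alone gives at these depths, so read numbers limit the precision of every cone value.

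**Figure D3:**
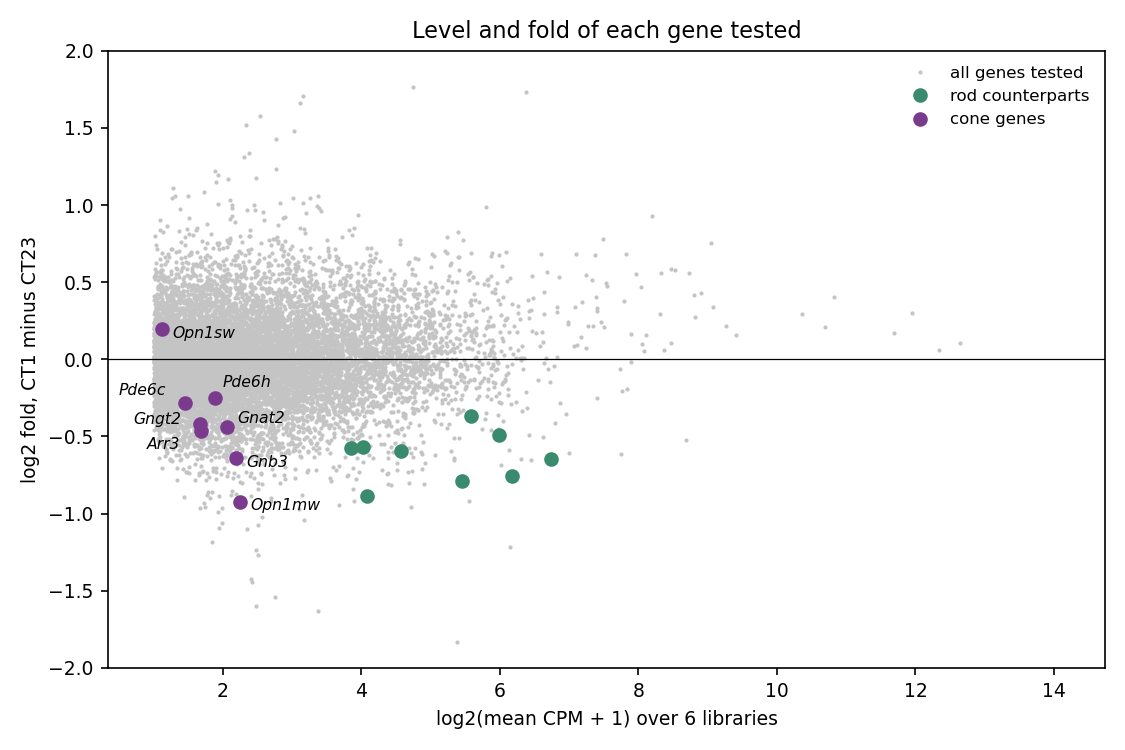
Each point is 1 of the 11342 genes tested, with log2(mean CPM + 1) over 6 libraries on the x axis and the limma log2 fold, CT1 minus CT23, on the y axis; 21 genes lie beyond the axis limits. Cone genes (purple) sit at the low end of the level range and rod counterparts (green) at higher levels, with Opn1sw above 0 and the other 7 cone genes tested below 0.

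Rod counterparts were set beside the cone genes. Rod genes were more abundant: Gnat1, the rod transducin alpha subunit, measured 145, 114 and 129 CPM at CT23 against 88.3, 80.9 and 78.0 CPM at CT1. The 9 rod counterparts used summed to 550, 434 and 467 CPM at CT23 against 320, 308 and 303 CPM at CT1. The CT1 mean of the rod sum was 0.641 times the CT23 mean, beside 0.639 times for the cone sum, and neither sum overlapped between the times. None of the rod counterparts passed limma's adjusted p of 0.05, and all 9 were lower at an unadjusted p under 0.05, against 12.4% of all genes. Their median log2 fold was -0.59 on the log2(CPM + 1) scale, which understates the less abundant cone genes more. Pde6a, a catalytic subunit of the rod phosphodiesterase, Cnga1, a rod channel subunit, and Gnat1 had log2 folds of -0.76, -0.57 and -0.64.

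**Figure D4:**
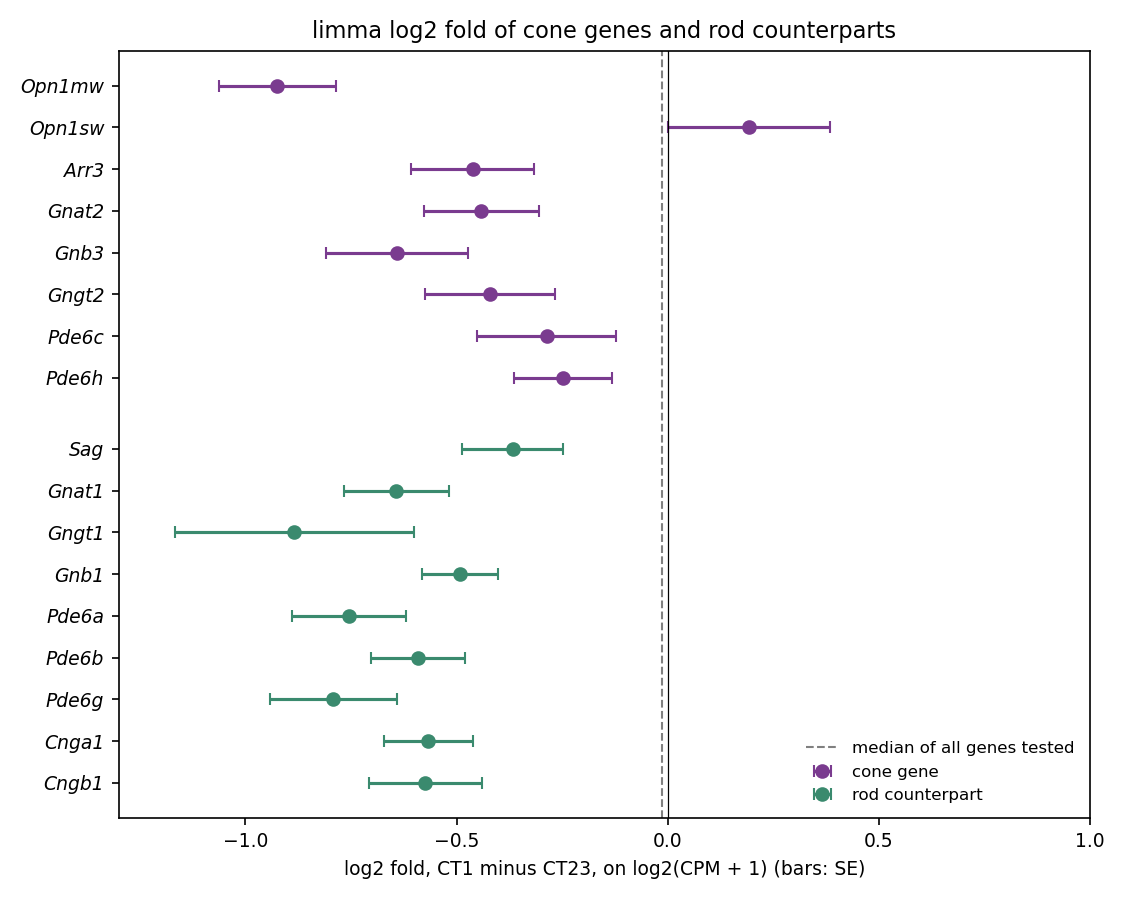
Limma log2 folds with SE on the log2(CPM + 1) scale for 8 cone genes (purple) and 9 rod counterparts (green); the dashed line is the median of all genes tested, -0.014. Opn1sw alone lies above 0, at 0.19, and Opn1mw has the lowest cone fold, -0.92.

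Ratios of a cone gene to its rod counterpart within a library do not depend on the total. Over 8 such pairs the mean log2 ratio was lower at CT1 in 3 and higher in 5. The times overlapped in 7 pairs, and whether any ratio differed between the times was not tested. Pde6h over Pde6g, the inhibitory subunits, had log2 ratios of -4.35, -3.93 and -4.24 at CT23 against -3.78, -3.48 and -3.84 at CT1. All CT1 libraries lay higher, with a difference of means of 0.47. In plain CPM the CT1 mean was 0.563 times the CT23 mean for Pde6g and 0.789 times for Pde6h. The limma log2 folds of these genes were -0.79 for Pde6g and -0.25 for Pde6h, on the log2(CPM + 1) scale, which understates Pde6h more. Gnat2 over Gnat1 was -5.09 ± 0.0772 at CT23 and -5.03 ± 0.105 at CT1 (SD, n = 3 each), overlapping between the times. Cngb3 over Cngb1 was -3.82 ± 0.0732 and -3.88 ± 0.0527, again with overlap. The arrestins, Arr3 over Sag, overlapped between the times with a difference of -0.31, which was -0.0024 without CT1 replicate 3, -0.56 without CT1 replicate 2 and -0.21 without CT23 replicate 2.

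**Figure D5:**
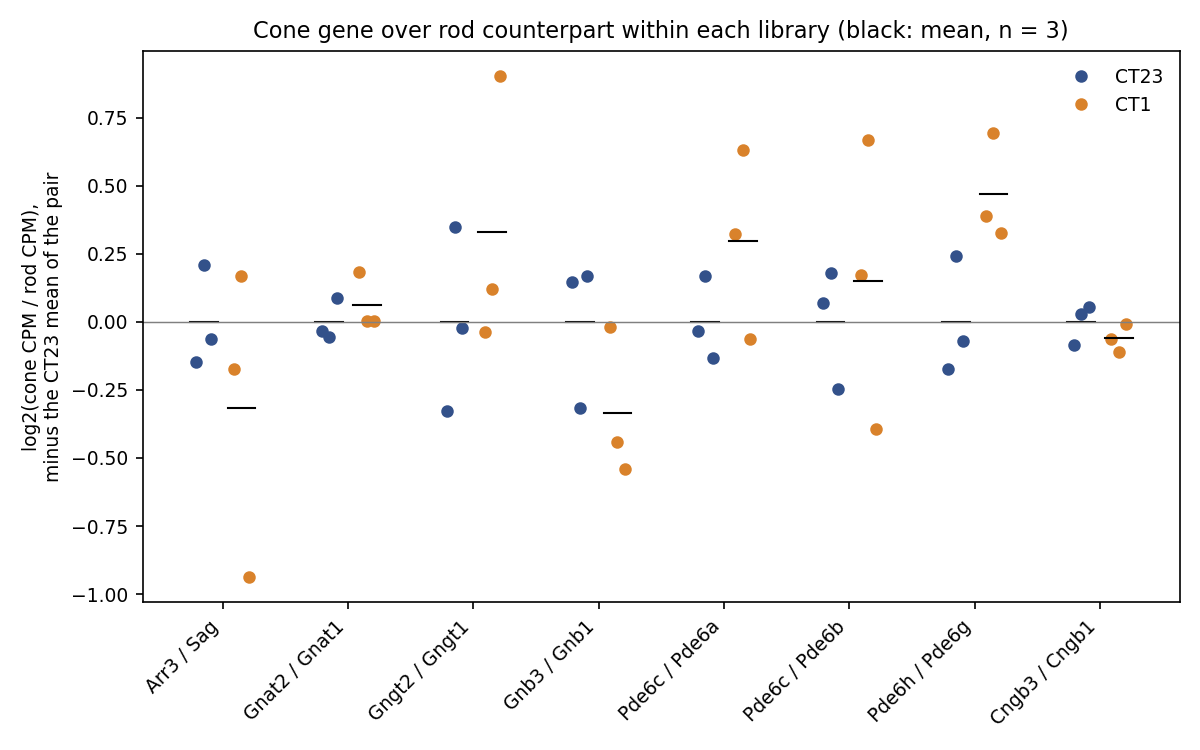
Log2 of cone gene CPM over rod counterpart CPM in each library, set to 0 at the CT23 mean of each pair; blue points are CT23, orange points CT1 and black lines means of 3 libraries. Pde6h over Pde6g is higher at CT1 by 0.47 with no overlap, while the means of Gnat2 over Gnat1 and Cngb3 over Cngb1 differ by 0.064 and -0.060.

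Other genes known from cones were mixed. Of 9 such genes 7 were listed, 4 with a lower and 3 with a higher mean at CT1. Sall3 and Kcne2, named because they were below the filter, averaged 0.349 and 0.549 CPM at CT23 against 0.513 and 0.613 CPM at CT1. Among the 5 tested, 4 had a lower fold, where 52.2% of all genes did, and 0 passed limma's adjusted p of 0.05. At an unadjusted limma p under 0.05, 2 of the 5 were lower, against 12.4% of all genes, and 0 were higher, against 9.39%. Slc24a2, the cone sodium, calcium and potassium exchanger, averaged 2.50 ± 0.376 CPM at CT23 against 1.55 ± 0.0607 CPM at CT1 (SD, n = 3 each; limma log2 fold -0.45, adjusted p = 0.114). Ccdc136 and Thrb had log2 folds of -0.28 and -0.29 (limma adjusted p = 0.187 and 0.314), and Fam19a3 had 0.13 (adjusted p = 0.541). The summed level of the 7 was 23.1 to 27.2 CPM at CT23 and 18.7 to 23.2 CPM at CT1, overlapping between the times. Some of these genes are also expressed outside cones, as Thrb is.

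Shutoff and calcium feedback genes that cones share with rods all had lower folds at CT1, where 52.2% of all genes tested did. Of the 10, 0 passed limma's adjusted p of 0.05 and 9 were lower at an unadjusted p under 0.05, against 12.4% of all genes. The median log2 fold of the 10 was -0.60. Grk1, the opsin kinase of mouse rods and cones, and Rgs9bp, which anchors the complex that switches transducin off, had log2 folds of -0.56 and -0.67. Rcvrn, the calcium sensor recoverin, and Pdc, which binds transducin, had -0.71 and -0.65. Of 9 photoreceptor transcription factors 0 passed, while 6 were lower by limma's unadjusted p under 0.05, against 12.4% of all genes. Prdm1, named after its value was seen, was higher by that p (log2 fold 0.41), as were 9.39% of all genes. Crx, which acts in rods and cones, averaged 15.7 CPM at CT23 against 11.3 CPM at CT1 (log2 fold -0.44), and Nrl, the rod fate factor, had a fold of -0.67.

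Markers of other tissues moved with the times in the same libraries. The summed lens markers were 23582 to 198961 CPM at CT23 and 2362 to 19489 CPM at CT1, highest in CT23 replicates 1 and 2. Skeletal muscle markers summed to 8.36 to 35.2 CPM at CT23 and 37.9 to 157 CPM at CT1, and fibroblast markers to 723 to 846 CPM and 939 to 1737 CPM. The part of these differences in the cone values was not tested. Without CT23 replicates 1 and 2 the limma adjusted p of Opn1mw was 0.586. When totals were formed without lens reads, the median fold over all genes went from -0.014 to -0.17 in log2. Limma then called 2 cone genes lower, Opn1mw (adjusted p = 0.0347) and Gnb3 (0.0392), where 3.18% of all genes were called lower and 0.0705% higher. DESeq2, which gave no cone gene an adjusted p, called 0.705% of all genes lower and 0.467% higher. Among genes averaging 5 CPM or more, which no cone gene did, limma called 1.76% lower and 0.318% higher.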

How the data were processed

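RNA was measured in 6 RPE-enriched libraries made with the QuantSeq 3′ mRNA kit, per the labels' protocols. The submitters' processing notes name mm10, Bowtie2 2.1.0, HTSeq and edgeR 3.24.1, without a role. Per the file headers, the deposited table holds a CPM column per library beside a log2 fold and 1 p-value per entry. In all 14083 entries the authors' log2 fold matched that of the mean CPM to 0.001; the authors' p-value was used only as such. Of the deposited CPM values 100% came out as whole reads (tolerance 0.01 read), which gave the totals. Listed genes took 12.7% to 32.3% of them. Entries with no gene name (75) held 0.0432% to 0.102% of listed reads and were left out.

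Limma 3.58.1 with a mean-variance trend was fitted on log2(CPM + 1) with time as the only factor, over genes averaging 1 CPM or more. Alternatives were pseudocounts of 0.25 and 4, no filter or 5 CPM, TMM, lens reads out of the totals, edgeR 4.0.16, DESeq2 1.42.0, limma-voom, a replicate block and left-out libraries. The tests were tried on simulated data. No library repeated another (chi-square per gene 5.08 to 141 over all pairs). Coordinates are from GENCODE M21 (mm10, counted from 1). Genes named were all cone genes, their rod counterparts, up to 4 per other list by smallest p and the 5 nearest profiles. Calu, Prdm1, Sall3, Kcne2, Vsx1, Slc6a9 and Lhx1 were named outside this rule. So were Trpm1, Otx2, Pax6, Apoe, Glul, Clu, Rlbp1 and Dct, for their part in the sums of their lists. Results of some genes on the lists are not reported here. The genes and lists were chosen with earlier results of these data known.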

Additional observations from a re-analysis of the deposited data

How the results depend on the processing

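The direction of each of the 8 cone genes tested was kept under all 16 alternatives that gave it an adjusted p: Opn1sw stayed positive, at log2 folds of 0.053 to 0.46, and the other 7 stayed negative, Opn1mw between -1.18 and -0.55. No cone gene passed with pseudocounts of 0.25 and 4, with no filter or with TMM factors. None passed by edgeR's quasi-likelihood test, by limma-voom or with any single library left out. Leaving aside the fit with 1 library at CT23, the adjusted p of Opn1mw ranged from 0.000158 (edgeR's exact test) to 0.174 (limma without CT23 replicate 2). Lens reads out of the totals and edgeR's exact test each called 2 cone genes, Opn1mw and Gnb3; the cause was not tested. Over all genes the count was 0, and it was 98 among genes averaging 5 CPM or more (15 higher, 83 lower; no cone gene is that abundant), 369 with lens reads out of the totals (8 higher, 361 lower), 813 by edgeR's exact test (368 higher, 445 lower) and 133 by DESeq2 (53 higher, 80 lower). DESeq2 gave no adjusted p to 5717 genes, all 8 cone genes among them. With single libraries left out the count over all genes was 0 to 4, the 4 without CT23 replicate 3. Without each library in turn the Opn1sw share differed by 14.9 to 26.5 percentage points and the log2 summed level by -0.70 to -0.57.

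The replicate block gave 0 genes, with Opn1mw at an adjusted p of 0.105, and changed no call. Same-numbered libraries correlated at -0.25, 0.38 and -0.042 across genes in their deviations from the time means. Differently numbered libraries correlated at -0.70 to 0.77, the highest being CT23 replicate 3 with CT1 replicate 1. These deviations include the lens and muscle genes that differ between libraries, so they cannot decide whether the numbers pair libraries. Read numbers limit what can be seen: the cone genes had 9 to 78 reads per library.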

Other observations

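Genes on the lists of other retinal neurons and glia had reads beside the cone genes, from abundant ones to some near the limit for no read. Averages over the 6 libraries were as low as 0.212 CPM for Vsx1, 0.263 CPM for Slc6a9 and 0.314 CPM for Lhx1. Whether these cell types were in the preparation was not tested. Of 8 bipolar cell markers listed, 6 were tested, with a median log2 fold of -0.24, and 0 passed. At an unadjusted limma p under 0.05, 2 of the 6 were lower, against 12.4% of all genes. Those 2 were Scgn, a calcium-binding protein gene, and Prkca, a kinase of rod bipolar cells, at log2 folds of -0.55 and -0.35. Of 8 Müller glia markers, 3 were lower at an unadjusted limma p under 0.05, against 12.4% of all genes, and 0 passed, with a median of -0.23. Vim, an intermediate filament gene that other cells of the eye also express, measured 125 and 79.3 CPM. Of 6 horizontal, amacrine and ganglion cell markers tested, 3 were lower at an unadjusted limma p under 0.05, against 12.4% of all genes. Of these 6, 0 passed, with a median of -0.28. Gad1, which makes the transmitter GABA, measured 2.95 and 1.59 CPM. The summed levels of these 3 lists overlapped between the times, at CT1 means of 0.894, 0.918 and 0.950 times the CT23 means. A few abundant genes made up most of each sum: Trpm1 and Otx2, then Apoe, Glul and Clu, then Pax6 (means 78.0 and 77.6 CPM). Rlbp1, of the Müller glia list, is also on the RPE list. These ratios therefore describe mainly those genes and not the less abundant markers. All 12 RPE markers had positive folds, as did 47.8% of all genes tested. Their median was 0.25, and 0 passed. Endothelium and melanocyte markers had medians of 0.16 and 0.11, and 0 passed.

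The 5 genes outside the cone list whose centred log2(CPM + 1) values over the 6 libraries lay closest to the mean of the 8 cone genes were Chd7, AC154640.4, D16Ertd472e, Hspa4l and Memo1, with root mean square differences of 0.0242 to 0.0311 against a median of 0.269 over all genes. None of them is on the photoreceptor lists used here. The scale understates changes of genes as low as the cone genes, so a more abundant gene with the same ratio between the times lies further away. The absence of photoreceptor genes among these 5 therefore does not show that they differ from the cone genes. Their log2 folds were -0.43 to -0.36, and none passed. The cone genes themselves lay 0.0811 (Pde6h) to 0.377 (Opn1sw) from that mean.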
